A study of Sesuvium portulacastrum with 18 samples.

Results

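The move from the early to the 1-day state in salt was followed in shoots of Sesuvium portulacastrum, a halophyte that grows on saline coasts. The comparison set 3 shoot libraries taken 24 h after the change to 250 mM NaCl against 3 taken 8 h after it. These 6 libraries were chosen by their labels from the 18 of the study, which also profiled roots. The plants were stem cuttings rooted in liquid medium, kept under a daily light period and used at 15 days. The cuttings were collected at a creek, and no strain, clone or genotype is given. A further set of shoots, the 0 h group, was moved to control medium and taken at once (3 libraries). It entered the fit but not the contrast. No shoots kept in control medium for 8 h or 24 h were analysed here, so time in salt, time since the medium was changed and hour of the day cannot be told apart. If all sets were started together, the 2 salt harvests lay 16 h apart and the 24 h harvest fell at the same hour as the 0 h harvest. Nothing in the labels says how many plants made up a library.

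Salt reaches a plant in overlapping phases. An early osmotic phase lowers water uptake and slows growth, and a later ionic phase follows as sodium and chloride build up in the leaves. Halophytes are known for loading sodium into the vacuoles of leaf cells, for balancing it with compatible solutes such as proline and betaines in the cytosol, and for keeping photosynthesis running at salt levels that stop most crops. Many leaf transcripts, above all those of photosynthesis and the circadian clock, also follow the time of day. The files name each transcript by an ID alone and pair no ID with a gene or function. The tissue could therefore not be checked against shoot markers, no salt pathway could be counted, and the changes are described by transcript, size and abundance.

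The 8 h and 24 h shoots were clearly separated from each other and close among themselves. The 8 h libraries held 11999463 to 12593709 estimated counts and the 24 h libraries 10992886 to 12848624, so depth was similar. Between an 8 h and a 24 h library, 21.5% to 23.3% of tested transcripts differed at least 2-fold (9 pairs). Between libraries of the same time the share was 5.81% to 6.35% at 8 h and 8.57% to 10.3% at 24 h (3 pairs each). The 8 h libraries were the most alike, with a biological coefficient of variation of 0.12 against 0.168 at 24 h and 0.208 at 0 h. Transcripts with at least 10 counts numbered 38151 to 39168 in the 8 h libraries and 35346 to 37120 in the 24 h libraries. The groups did not overlap, and the two-sided exact permutation p was 0.1, the smallest that 3 against 3 libraries allow (adjusted p = 0.15 over 6 such quantities). In whole shoots, fewer cells of a type and less RNA per cell cannot be told apart.

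The named transcripts were chosen among called ones with non-overlapping groups and a lower group averaging at least 10 counts. Larger fitted rises, up to 10.2 on the log2 scale, belonged to transcripts outside this filter. Within it the largest rise in fold was that of S_Transcript_47518.p1, which was nearly silent at 8 h and abundant at 24 h. Levels here are the deposited normalized CPM (each count as a rate of its library's total, divided by 1 scaling factor per library), which are not divided by transcript length. The transcript stood at 1.22, 0.664 and 0.506 CPM in 8 h replicates 1 to 3, from 17, 9 and 7 counts. At 24 h it stood at 483, 422 and 440.3 CPM, far above every 8 h library. The log2 fold change was 9.14 (SE 0.23, adjusted p = 1.6e-10, edgeR's quasi-likelihood test). Before salt its level was 242, 303 and 226 CPM, below all 3 of the 24 h libraries.

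The transcript that gained most CPM was S_Transcript_15011.p1, first of all tested transcripts by mean CPM at 0 h and at 24 h and number 2 at 8 h. It held 4038, 4022 and 3487 CPM at 8 h. At 24 h it held 21181, 19335 and 20079 CPM, a rise of 2.42 on the log2 scale (SE 0.12, adjusted p = 2.33e-08 by edgeR's test). The 2 groups lay far apart, and the 0 h values of 14646, 17022 and 20343 CPM reached into the range of the 24 h libraries. This single transcript made up 0.384% to 0.454% of all counts at 8 h and 1.83% to 2.03% at 24 h.

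Larger fitted falls, down to -9.15 on the log2 scale, belonged to transcripts outside the filter used for naming. Within it the largest fall in fold was that of S_Transcript_71757.p1. Its level was 344, 337 and 314 CPM at 8 h and 5.85, 6.85 and 7.19 CPM at 24 h. All 3 libraries of 24 h lay below all 3 of 8 h, and the log2 fold change was -5.62 (SE 0.14, adjusted p = 1.6e-10, edgeR's test). The 0 h libraries, at 11.3, 14 and 10.3 CPM, were low as well but above each 24 h library.

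The transcript that lost most CPM was S_Transcript_58763.p1, the most abundant of all tested transcripts in the 8 h shoots. It went from 4312, 4094 and 5059 CPM at 8 h to 388, 667 and 652 CPM at 24 h. The 24 h libraries did not overlap with the 8 h ones, although replicate 1 was lower than the others of its time. The log2 fold change was -2.95 (SE 0.19, adjusted p = 2.16e-07, edgeR's test). At 0 h it stood at 690.1, 609.9 and 592 CPM, with 2 libraries inside the span of the 24 h libraries and replicate 1 above it. A further fit took as covariate the part of each library taken up by its 10 most abundant transcripts. In it the fall of S_Transcript_58763.p1 (-1.43, adjusted p = 0.338, edgeR's test) and the rise of S_Transcript_15011.p1 (1.19, adjusted p = 0.0781) did not pass the test. The changes of S_Transcript_47518.p1 and S_Transcript_71757.p1 did. S_Transcript_58763.p1 and S_Transcript_15011.p1 were number 1 and number 2 by mean CPM at 8 h, so each was part of the covariate. Time accounted for 96.1% of the covariate's variance, and the median SE grew 4.77 times. This fit therefore does not show which of these changes holds better.

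**Figure D1:**
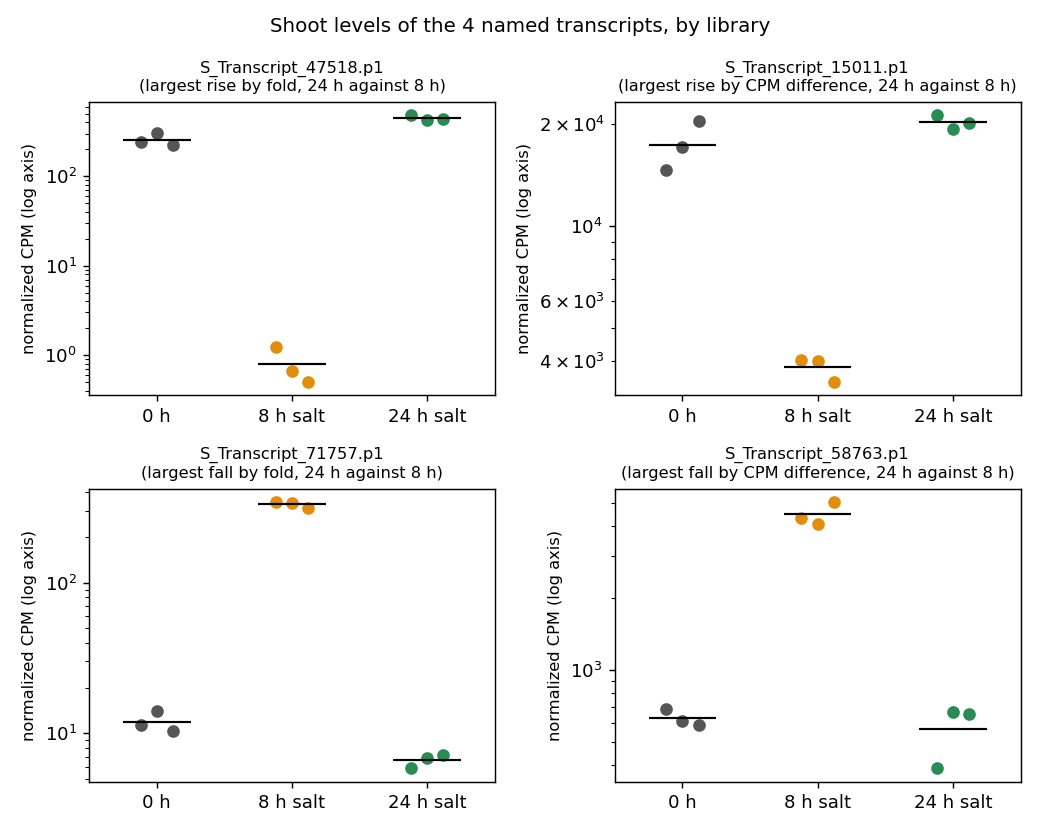
Deposited normalized CPM (log axis) of 4 transcripts in each of the 9 shoot libraries; points are libraries, bars are means of 3, and columns are 0 h, 8 h and 24 h. The 8 h libraries stand alone in each panel, low in the upper row (0.506 to 1.22 CPM for S_Transcript_47518.p1) and high in the lower row (314 to 344 CPM for S_Transcript_71757.p1).

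The 10 largest rises in fold among transcripts with reliable counts at both times began with S_Transcript_47518.p1. They ran from 9.14 down to 6.39 on the log2 scale. Their mean level was 0.797 to 10.7 CPM at 8 h and 84.3 to 881 CPM at 24 h, and 47.8 to 1019 CPM at 0 h. The 10 largest falls began with S_Transcript_71757.p1 and ran from -5.62 to -3.83. Their means were 20.1 to 1239.8 CPM at 8 h, 1.02 to 47.6 CPM at 24 h and 0.939 to 52.2 CPM at 0 h. In all 10 rises and all 10 falls the 0 h level lay nearer, on the log2 scale, to the 24 h level than to the 8 h level. These transcripts were picked by the gap between 8 h and 24 h, so this is a description with no test. It was also not particular to them. Over all tested transcripts, a median of 12.1% differed at least 2-fold between a 0 h and a 24 h library, against 19.9% between 0 h and 8 h. The 10 largest gains in CPM were other transcripts than the 10 largest rises in fold (0 shared). Those gains ran from 2594 CPM to the 16349 CPM of S_Transcript_15011.p1, at log2 fold changes of 1.27 to 3.60.

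Across the shoot, 11167 of 40220 tested transcripts changed between 8 h and 24 h, which is 27.8%. Of these, 6099 rose (15.2% of those tested) and 5068 fell (12.6%). In the same model 25.8% were called for 8 h against 0 h and 7.07% for 24 h against 0 h. These comparisons share libraries, so the shares are set side by side only. The 24 h libraries lay wholly above the 8 h libraries for 8352 tested transcripts (20.8%) and wholly below them for 9242 (23%). Of the called transcripts, 11041 had such non-overlapping groups and 126 did not. The part of each library taken up by its 10 most abundant transcripts moved with time (3.31% on average at 8 h and 7.02% at 24 h). With that share as a covariate 1249 transcripts were called, and time accounted for 96.1% of its variance, so the covariate and time could hardly be told apart.

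With TMM scaling, rises were larger than falls at the median. The median rise was 1.18 on the log2 scale (2.26-fold) and the median fall -0.92 (1.89-fold), while the median over all tested transcripts was -0.01. Scaling by library size alone moved that last median to -0.27, which makes rises smaller and falls larger. The order of the 2 median sizes can therefore depend on the scaling, and it was not computed under library size alone. At least 2-fold changes were called for 5826 transcripts (14.5% of those tested), 3555 up and 2271 down. Among changes of 4-fold or more 1414 were rises and 545 falls. From 16-fold upward there were 254 rises and 61 falls. Some of the largest fitted folds belonged to transcripts with no counts at 1 of the times, for which a fold is only a bound. Without them, 225 rises and 52 falls of 16-fold or more remained.

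The split between rises and falls depended on how libraries were scaled, while at 4-fold and above rises outnumbered falls under each scaling run. With library size alone, the median log2 fold change of all tested transcripts was -0.27 and the split became 4346 up and 10181 down. Of the changes of 2-fold or more, 2717 were then rises and 4025 falls. From 4-fold upward there were 1119 rises and 844 falls, and from 16-fold upward 199 and 76, again with more rises than falls. With the size factors of DESeq2 in edgeR, the counts were 6099 up and 5057 down.

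**Figure D2:**
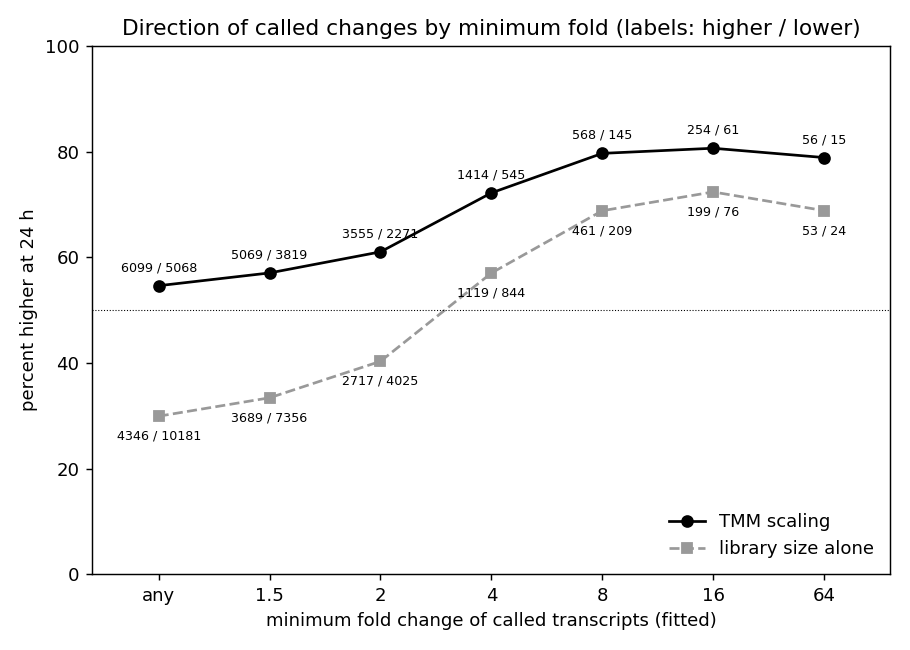
Percent of called transcripts that were higher at 24 h than at 8 h (y axis) among those past each minimum fitted fold (x axis), with the number higher and lower printed at each point; the black line uses TMM scaling and the grey line library size alone. Under TMM the share went from 54.6% for any fold to 72.2% at 4-fold and 80.6% at 16-fold, and under library size alone from 29.9% to 57.0% and 72.4%.

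The changes moved a large part of the RNA pool. The 6099 transcripts that rose held 24.2%, 24.3% and 24.4% of all counts in the 8 h libraries and 47.3%, 46.8% and 46.5% in the 24 h libraries. The 5068 that fell held 25.8%, 25.6% and 25.2% at 8 h and 11.7%, 11.7% and 12.0% at 24 h. These shares need no scaling factor, but the calls fix their direction, so they were not tested. At 0 h, which the calls did not use as a side, the first set held 42.0 ± 1.58% of counts and the second 14.02 ± 0.135% (SD, n = 3).

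Gains rested on few transcripts and losses on more. A set of 103 transcripts, 1.69% of those that rose, gave 50% of the summed gain in CPM, and 10 gave 20.02%. For the falls, 227 transcripts (4.48%) gave 50% of the summed loss, and 10 gave 13.4%. The median riser gained 7.26 CPM and the median faller lost 6.27 CPM.

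The top of the abundance range was more concentrated at 24 h. Each library's own 10 most abundant transcripts held 3.31%, 3.33% and 3.28% of counts at 8 h and 7.27%, 6.86% and 6.93% at 24 h. For the 100 most abundant the shares were 15.6 ± 0.0689% and 21.8 ± 0.197% (SD, n = 3). Neither pair of groups overlapped, with the two-sided exact permutation p at its smallest value of 0.1 for both (adjusted p = 0.15). Of the 100 most abundant transcripts at 8 h, 67 were also among the 100 most abundant at 24 h, and of the top 10 it was 3.

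All 10 of the most abundant transcripts at 0 h rose between 8 h and 24 h, 9 of them at least 2-fold. Their log2 fold changes ran from 0.42 to 3.27 (largest adjusted p = 0.00323, edgeR's test). With library size alone they ran from 0.16 to 3.01, and 9 of the 10 passed the test. The steepest was the transcript at rank 9 at 0 h, with 313, 318 and 392 CPM at 8 h and 3349, 3058 and 3307 CPM at 24 h. The flattest was rank 7, with 3462, 3468 and 3608 CPM at 8 h and 4627, 4576 and 4615 CPM at 24 h. No library of 8 h reached one of 24 h in either. Together the 10 held 2.25 ± 0.0296% of counts at 8 h and 6.88 ± 0.207% at 24 h (SD, n = 3).

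**Figure D3:**
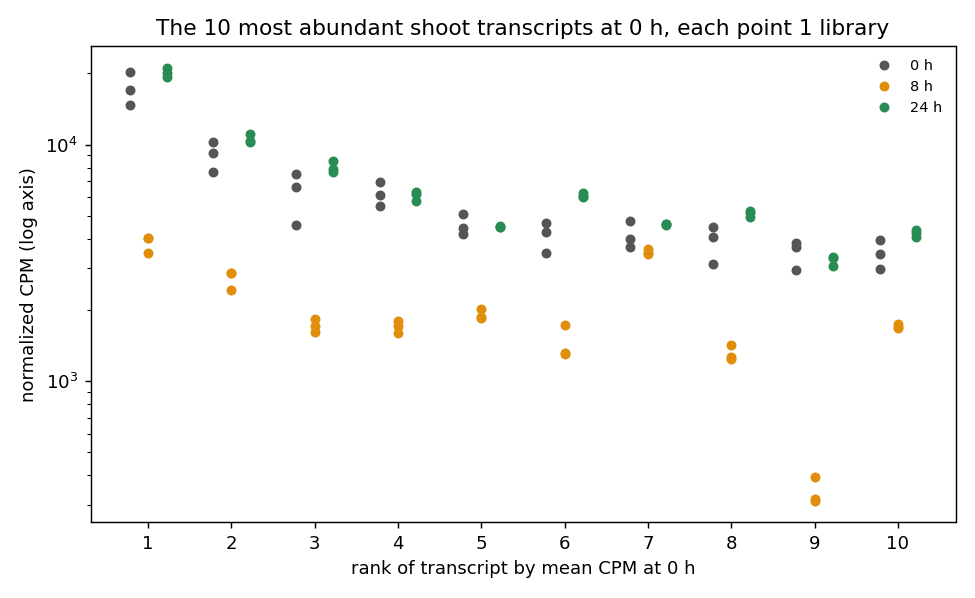
Deposited normalized CPM (log axis) of the 10 transcripts with the highest mean CPM at 0 h, ordered by that rank on the x axis; each point is 1 library at 0 h (grey), 8 h (orange) or 24 h (green). At rank 9 the 8 h points lie at 313 to 392 CPM and the 24 h points at 3058 to 3349, and at rank 7 the gap is the narrowest, from 3608 to 4576 CPM.

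Among the 100 most abundant transcripts at 0 h, 73 rose and 7 fell, 44 and 2 of them at least 2-fold. With library size alone 59 rose and 14 fell. A ranking by 0 h favours transcripts that are high at 0 h, where levels were nearer to 24 h than to 8 h. Ranked at 8 h instead, the top 100 held 46 that rose and 26 that fell with TMM, and 29 and 37 with library size alone, so that this direction turned with the scaling. Over all tested transcripts, 15.2% rose and 12.6% fell with TMM.

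Calls were denser among abundant transcripts, and with TMM scaling the direction differed between the 2 ends of the abundance range. The tested transcripts were divided into quintiles of 8044 by their mean CPM in the 0 h libraries. In the top quintile, above 22.7 CPM, 30.0% rose and 18.7% fell. In the bottom quintile, up to 1.21 CPM, 4.84% rose and 7.27% fell. The filter on low counts ran over all shoot libraries. A transcript low at 0 h could thus enter through its 8 h or 24 h level. With 0 h levels nearer to 24 h, this and the ranking at 0 h favour falls in the bottom quintile. The part this played in the difference of direction was not tested. The bottom shares dropped whichever 8 h or 24 h library was left out. Without 8 h replicates 1, 2 and 3, 3.24%, 3.20% and 3.56% rose, and 4.70%, 4.40% and 4.30% fell. Without 24 h replicates 1, 2 and 3, 3.19%, 2.78% and 3.23% rose, and 5.30%, 4.81% and 6.17% fell. Each of these fits had fewer libraries and its own set of tested transcripts. Precision differed along this range, with a median SE of 0.11 in the top quintile and 0.48 in the bottom quintile. The median size of the change over all transcripts ran the other way, from 0.52 on the log2 scale in the bottom quintile to 0.32 in the top quintile, and that size includes sampling noise. At least 2-fold rises made up 13.1% of the top quintile and 4.79% of the bottom quintile, and at least 2-fold falls 3.75% and 7.17%. With library size alone falls outnumbered rises in every quintile. The top quintile then held 1715 that rose and 3372 that fell, against 2410 and 1508 with TMM. The bottom quintile held 304 and 968, against 389 and 585.

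**Figure D4:**
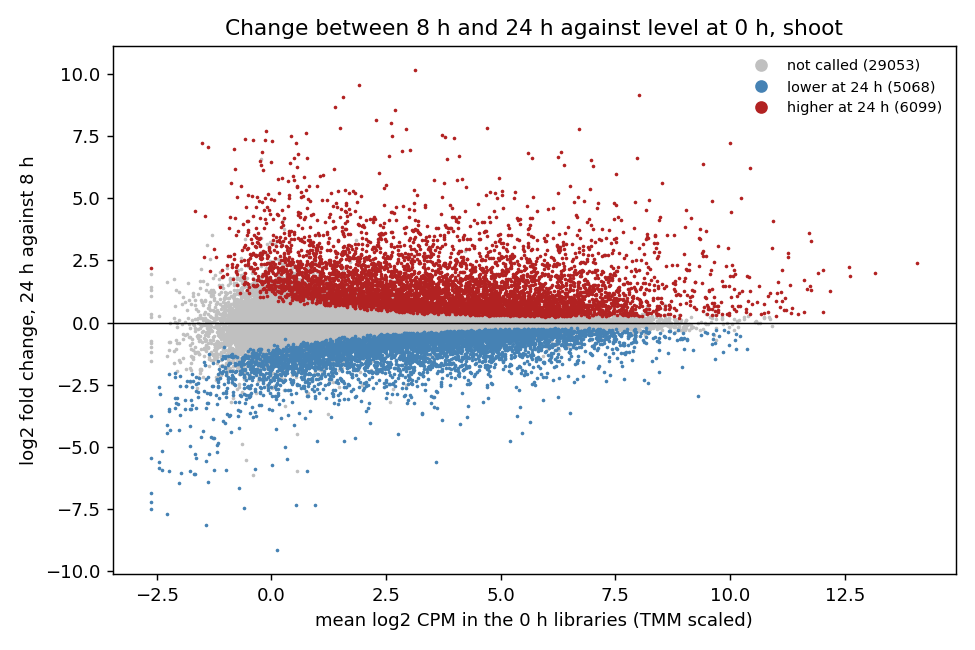
Log2 fold change between 8 h and 24 h (y axis, TMM scaling) of each tested shoot transcript against its mean log2 CPM in the 0 h libraries (x axis); red points rose, blue points fell and grey points were not called. Above 10 on the x axis 68 points are red and 5 blue, while the deepest fitted falls lie at the left. Of the 15 falls of 64-fold or more, 7 had counts at both times, and for the others the fold is only a bound.

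On the whole, the 0 h level of the changed transcripts lay closer to the 24 h level than to the 8 h level. For the transcripts that rose, the median log2 ratio of the 0 h level to the 8 h level was 0.92 and that to the 24 h level -0.22, beside a median rise of 1.18. For those that fell, the same ratios were -0.60 and 0.25, beside a median log2 fold change of -0.92. Over all tested transcripts the medians of these ratios were 0.00 and -0.01. Among the at least 4-fold changes, the ratios of risers were 2.43 to 8 h and -0.37 to 24 h, and those of fallers -1.81 to 8 h and 0.79 to 24 h. The 2 ratios share the 0 h libraries, and choosing transcripts by the gap between 8 h and 24 h moves both of those levels outward, so the medians are descriptions with no test.

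**Figure D5:**
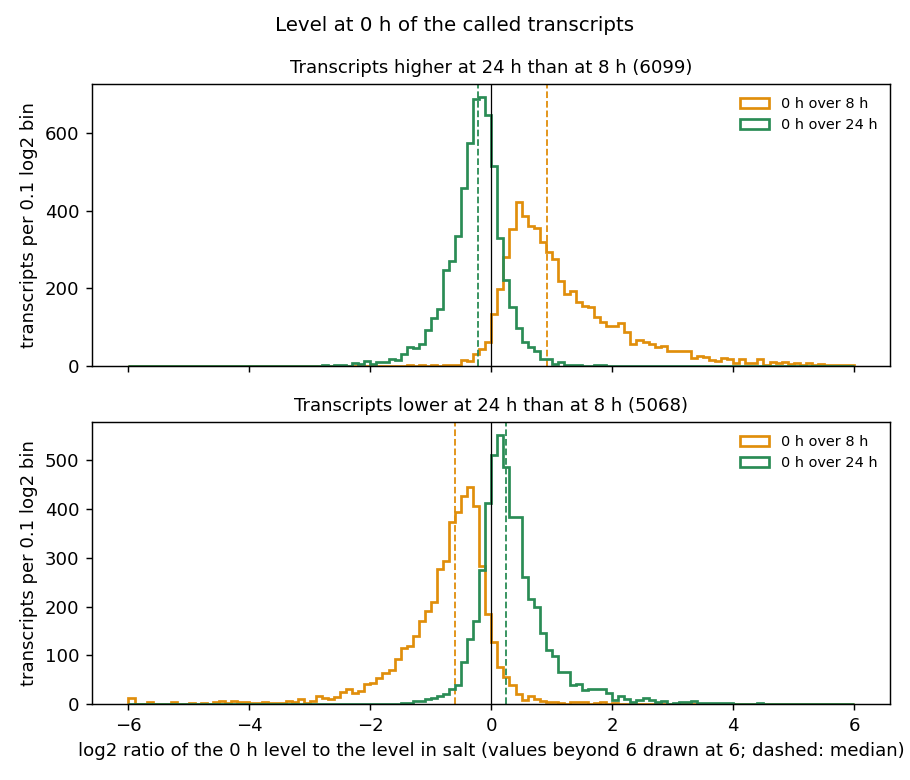
Number of called transcripts (y axis, per 0.1 log2 bin) by the log2 ratio of their 0 h level to the 8 h level (orange) or the 24 h level (green), for those higher (top) and lower (bottom) at 24 h; dashed lines are medians. The green medians lie near 0, at -0.22 and 0.25, and the orange medians at 0.92 and -0.60.

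The 4 named transcripts differed in where they stood at 24 h against 0 h. S_Transcript_47518.p1 was higher at 24 h than at 0 h (log2 fold change 0.81, SE 0.14, adjusted p = 0.00538, edgeR's test), and S_Transcript_71757.p1 was lower (-0.83, SE 0.14, adjusted p = 0.00506). For S_Transcript_15011.p1 (0.24, SE 0.11, adjusted p = 0.244) and S_Transcript_58763.p1 (-0.14, SE 0.17, adjusted p = 0.714) the difference did not pass the test. In the same model their 8 h against 0 h log2 fold changes were -8.33, 4.79, -2.18 and 2.81 in this order.

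A small group was without counts at 1 of the 2 times. Of 30 tested transcripts with no counts in any 8 h library 29 were called, and of 15 with none in any 24 h library 9 were. Among all tested transcripts 27.8% were called. Transcripts without counts at a time could pass the filter on low counts only through another time, which favours a call. A total of 0 over 3 libraries allows up to 3 counts, or 0.0807 CPM at 8 h and 0.0833 CPM at 24 h, for counting error only. Both limits, and the bounds taken from them, are by library size alone, without the TMM factors. On that scale the 29 were at least 6.54-fold to at least 134-fold higher at 24 h. The 9 were at least 8.4-fold to at least 77.2-fold lower. TMM scaling makes rises larger and falls smaller, so these bounds for the falls do not carry over to it. Bounds under TMM were not computed.

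Some IDs share a transcript number. Among tested IDs, 1408 numbers carried more than 1 ID, told apart by a suffix. In 216 of them at least 2 IDs were called, in 1 direction for 202 and in opposite directions for 14. In 338 numbers at least 1 ID was called and at least 1 was not. Reads of near-identical sequences can be split between IDs, so such IDs are not independent. Counted by number, 10931 transcript numbers held a called ID.

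Transcripts without a call differed in how far a change was bounded. Of these 29053, 15693 (54.0%) had a 95% interval of the log2 fold change wholly inside 2-fold in either direction. For the other 13360 the interval reached 2-fold, so a change of that size was not excluded. At the other end, 3024 called transcripts had an interval wholly beyond 2-fold, 2130 of them higher and 894 lower at 24 h.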

How the data were processed

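RNA from shoots was made into libraries with a strand-keeping kit, per the labels' protocols. The authors deposited estimated counts per transcript as whole numbers (treated as estimated counts; rounding changed 0 values) and a normalized signal. Trimmomatic, kallisto 0.45 and edgeR 3.40.1 are listed, with no roles, in the submitters' processing notes. For assembly, reference and use of the strand in counting, nothing is stated in the labels. The deposited signal equals CPM divided by the TMM factor of each library, computed over transcripts with any count, and served only to describe levels. Every column matched 1 library.

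In R 4.3.3, edgeR 4.0.16 kept 40220 of 99653 shoot transcripts (filterByExpr, minimum count 10). TMM scaling and 1 quasi-likelihood model of the 9 shoot libraries followed, fitted by time without covariates. Tests were two-sided, and the threshold for a call was an adjusted p of 0.05 (Benjamini-Hochberg, all tested transcripts). SE is the absolute log2 fold change over the square root of F. The procedure was tested on simulated data. DESeq2 1.42.0, other scalings and filters, and fits without each library were run as alternatives. Named transcripts are called, have non-overlapping groups and a lower group averaging at least 10 counts: the largest rise and fall by fold and by CPM difference, at most 2 each way because IDs carry no gene names. "Reliable counts" means the same filter. Members, rules and settings were chosen with earlier results of these data known. Lists of salt, clock and tissue genes could not be applied. Replicates are biological, per the series' design text. No 2 libraries were identical, and all differed by more than sampling noise.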

Additional observations from a re-analysis of the deposited data

How the results depend on the processing

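The number of changed transcripts, 11167, was 11156 with DESeq2's size factors in edgeR, 10054 in DESeq2, 11512 without a filter on low counts, 11479 with a stricter filter, 11718 with the 6 salt libraries alone and 10993 with counts summed over IDs sharing a number. It ran from 8988 to 12016 when 1 of the 9 libraries was left out. Replicate numbers showed no clear pairing of the samples. Deviations of same-numbered 8 h and 24 h libraries correlated at 0.03, -0.07 and 0.06, and those of differently numbered ones at -0.12 to 0.09. Among the 8 h libraries, replicates 1 and 3 correlated best with their own number and replicate 2 did not. With 3 libraries a group these values cannot exclude a pairing. With a replicate block 10126 were called. Stricter by construction, adjusted p under 0.01 left 7418 (3031 lower), and a test against a minimum fold of 1.5 left 4925 (3171 higher, 1754 lower). With library size alone 10181 were lower, 4025 of them at least 2-fold, the share lower was 41.9% in the top and 12.0% in the bottom quintile, and the fallers' 0 h ratios were -0.61 to 8 h and 0.18 to 24 h. With each library's top-10 share of counts as a covariate 1249 were called, all at least 2-fold, 720 higher and 529 lower. Time accounted for 96.1% of that covariate's variance, and the median SE grew 4.77 times. In that fit S_Transcript_15011.p1 (1.19, adjusted p = 0.0781) and S_Transcript_58763.p1 (-1.43, adjusted p = 0.338, edgeR's test), both part of that share at 8 h, missed the threshold. They stayed past it in the other 17 settings run for each, and S_Transcript_47518.p1 and S_Transcript_71757.p1 in all 18. Leaving out 1 library gave 5025 to 6468 higher, 3890 to 5548 lower and 5366 to 6067 at least 2-fold (3237 to 3661 higher, 1979 to 2485 lower). The median 0 h ratios then ran from 0.90 to 1.07 and -0.25 to -0.20 for risers, and from -0.68 to -0.60 and 0.24 to 0.33 for fallers. In the top quintile 25.8% to 31.3% rose and 15.1% to 20.5% fell, and in the bottom quintile 2.78% to 4.46% and 4.30% to 7.09%. The gap in top-10 share, 3.71 percentage points, ran from 3.59 to 3.79, and was 6.18 for the top 100. Each fold change and ratio kept its sign, while the larger side of the split between rises and falls turned with library size alone. Depth limits the bottom quintile, with a median of 11 counts per library.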
